A study of Homo sapiens with 8 samples.

Results

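NRF2 (gene NFE2L2), its inhibitor KEAP1 and 8 genes known as NRF2 targets (NQO1, GCLM, GCLC, HMOX1, TXNRD1, SLC7A11, ABCC1 and AKR1C1) were followed in rhabdomyosarcoma cells kept at 1% oxygen. Probe sets annotated to exactly 1 of these symbols were taken, which gave 18 of 22277 probe sets and 10 of the 11963 genes that could be named. They were chosen from measured values: low levels of NQO1, GCLM and HMOX1 in hypoxia had been seen earlier in these data. The changes of these 3 genes against 0 h are therefore described with no test, and those of the other 7 are tested on all probe sets of the array but are not independent evidence of a shared direction.

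Cells of the human alveolar rhabdomyosarcoma line SJRH30, grown in RPMI medium with fetal bovine serum, were taken at 0 h, when hypoxia had not yet begun, and at 6, 12 and 24 h of 1% oxygen in a chamber. Each time holds 2 arrays, which the labels call biological replicates, giving 8 arrays. The labels name no genetic change or added agent in any group. Normoxic cells of the 3 later times were not analysed here, and effects of hypoxia and of time in culture cannot be told apart. The labels also call the cells muscle fibroblasts. All 8 muscle and rhabdomyosarcoma markers examined, among them MYOD1 (mean log2 value 11.99) and MYOG (10.07), lay above the array median of 6.70, while of 8 fibroblast markers COL1A1 and COL3A1 did and DCN, LUM, PDGFRB, THY1, FAP and COL1A2 did not.

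NRF2 is a basic leucine zipper transcription factor that pairs with small MAF proteins on antioxidant response elements. In unstressed cells KEAP1 holds it in the cytoplasm and presents it to a CUL3 ubiquitin ligase for degradation. Electrophiles and oxidants modify cysteines of KEAP1, NRF2 then accumulates, and it raises transcription of enzymes for glutathione synthesis, quinone reduction, thioredoxin reduction, heme breakdown and export of conjugates. NRF2 is thus controlled largely at the protein level, which arrays do not measure.

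The sequences below show where the core letters of the antioxidant response element lie close to annotated starts of GCLM, TXNRD1, KEAP1 and NQO1. They span 250 bases before to 50 bases after the annotated start of the gene, 5′ to 3′ on the gene's own strand, from RefSeq on GRCh38.p14. Capitals mark every match to TGACNNNGC on either strand.

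GCLM, chr1:93909381-93909680, minus strand: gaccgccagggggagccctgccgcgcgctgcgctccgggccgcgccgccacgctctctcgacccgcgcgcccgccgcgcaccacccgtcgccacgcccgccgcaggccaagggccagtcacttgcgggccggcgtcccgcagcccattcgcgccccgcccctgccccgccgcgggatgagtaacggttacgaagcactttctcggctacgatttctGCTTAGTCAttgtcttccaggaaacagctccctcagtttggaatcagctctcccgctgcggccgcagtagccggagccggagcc
TXNRD1, chr12:104286782-104287081, plus strand: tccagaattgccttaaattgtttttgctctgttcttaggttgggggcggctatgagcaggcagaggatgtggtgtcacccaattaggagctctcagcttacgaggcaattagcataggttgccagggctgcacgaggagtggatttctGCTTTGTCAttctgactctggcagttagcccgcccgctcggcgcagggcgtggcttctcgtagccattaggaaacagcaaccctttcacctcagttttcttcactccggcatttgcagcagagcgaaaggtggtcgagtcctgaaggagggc
KEAP1, chr19:10502722-10503021, minus strand: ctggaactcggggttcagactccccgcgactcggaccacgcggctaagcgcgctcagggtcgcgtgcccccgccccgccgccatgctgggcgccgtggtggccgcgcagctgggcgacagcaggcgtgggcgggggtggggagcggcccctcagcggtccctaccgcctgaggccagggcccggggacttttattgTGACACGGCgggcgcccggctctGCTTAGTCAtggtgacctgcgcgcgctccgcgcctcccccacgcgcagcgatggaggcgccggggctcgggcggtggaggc
NQO1, chr16:69726511-69726810, minus strand: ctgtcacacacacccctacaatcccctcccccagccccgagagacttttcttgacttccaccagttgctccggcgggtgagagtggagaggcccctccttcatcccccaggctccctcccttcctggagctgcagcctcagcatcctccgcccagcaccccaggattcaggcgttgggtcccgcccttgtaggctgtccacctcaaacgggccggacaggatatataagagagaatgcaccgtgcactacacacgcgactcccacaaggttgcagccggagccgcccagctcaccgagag

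In GCLM the match read TGACTAAGC on the strand opposite to the gene, 34 to 26 bases before the start. The KEAP1 window printed above held the same 9 letters on its opposite strand, 31 to 23 bases before the start, and TGACACGGC on its own strand, 54 to 46 bases before it. In the TXNRD1 window printed above, the match was TGACAAAGC on the opposite strand, 102 to 94 bases before the start. As printed, GCLM and TXNRD1 shared 17 of 18 consecutive letters there, which are gatttctgcttagtcatt in GCLM and gatttctgctttgtcatt in TXNRD1, with 1 difference, A5T, counted from 1 at the first capital and given as GCLM's base, the position and TXNRD1's base. A second annotated start of TXNRD1 had 2 further matches, a second KEAP1 window (chr19:10503307-10503606) had 0, and the NQO1 window had 0. RefSeq windows were found for 7 of the 10 genes, not for HMOX1, SLC7A11 and ABCC1. Of these 7, 3 (KEAP1, GCLM and TXNRD1) held a match. Letters outside the windows were not searched, so 0 matches does not mean that a gene lacks an element. Over all 27305 genes with a window, 16.06% held one, so these letters are common. A match is a description of the letters and no measure of binding.

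Values are the authors' log2 probe set summaries, where a difference of 1 means a ratio of 2. They are relative to the other transcripts on the same array, so that a smaller total of messenger RNA would not be seen, and in such bulk samples fewer cells of a kind and less RNA per cell cannot be told apart. Each hypoxic time was set against 0 h, and 24 h against 6 h, with limma on all 22215 probe sets other than controls. A probe set was called at a Benjamini-Hochberg adjusted p under 0.05 over all of them. Changes are hypoxic minus 0 h values with the standard error of the fit (n = 2 arrays per time). The labels do not say whether replicates were separate cultures on separate days, so the p-values measure the spread between these arrays.

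NFE2L2 itself kept a high level. Its array values were 10.19 and 10.31 at 0 h, 10.26 and 10.22 at 6 h, 10.16 and 10.10 at 12 h, and 10.16 and 10.03 at 24 h. The 6 h arrays lay between those of 0 h, and the 12 h and 24 h arrays lay just below them. The change against 0 h was -0.12 ± 0.07 at 12 h (adjusted p = 0.309) and -0.15 ± 0.07 at 24 h (adjusted p = 0.213), and neither passed the test. KEAP1, the inhibitor, had 8.98 and 9.06 at 0 h, 8.91 and 8.78 at 6 h, 8.73 and 8.78 at 12 h, and 8.81 and 8.86 at 24 h. All 6 hypoxic arrays were below both 0 h arrays. KEAP1 fell by 0.27 ± 0.07 at 12 h (adjusted p = 0.0354), while the changes at 6 h (-0.18, adjusted p = 0.226) and 24 h (-0.19, adjusted p = 0.12) were not called. With a variance trend the 24 h change was called (adjusted p = 0.0439). The 12 h call did not hold without 0 h replicate 1 (adjusted p = 0.111), 0 h replicate 2 (0.199), 12 h replicate 1 (0.0966) or 12 h replicate 2 (0.0774), with a replicate block (0.0589) or after a further quantile normalisation (0.0738).

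At 24 h NQO1 lay further below its 0 h level than any of the other 9 genes did. It encodes the NAD(P)H quinone dehydrogenase that reduces quinones and is a textbook read-out of NRF2 activity. Its brightest probe set, 210519_s_at, had 9.77 and 9.64 at 0 h, 9.21 and 9.22 at 6 h, 8.62 and 8.54 at 12 h, and 8.02 and 7.85 at 24 h. Each time lay below the one before it, with no overlap between arrays of different times. Against 0 h the level was lower by 0.49, 1.13 and 1.77 (each ± 0.08) at 6, 12 and 24 h, so that the 0 h level was 3.41 times that at 24 h. Both other NQO1 probe sets ran the same way. Probe set 201467_s_at had 8.50 and 8.57 at 0 h, 8.02 and 8.15 at 6 h, 7.53 and 7.53 at 12 h, and 7.03 and 7.19 at 24 h, and was lower by 0.45, 1.01 and 1.43. Probe set 201468_s_at had 8.45 and 8.48 at 0 h, 7.75 and 7.72 at 6 h, 7.25 and 7.25 at 12 h, and 7.08 and 6.91 at 24 h, and was lower by 0.73, 1.21 and 1.47. The 201468_s_at difference was the largest of the 3 at 6 h, and that of 210519_s_at at 24 h.

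Glutathione synthesis was covered by the transporter that supplies cystine and by both subunits of its rate-limiting enzyme, glutamate-cysteine ligase. GCLM, the modifier subunit, had 8.67 and 8.74 at 0 h, 8.14 and 7.99 at 6 h, 7.29 and 7.37 at 12 h, and 7.40 and 7.39 at 24 h. The 0 h, 6 h and later arrays formed 3 separate levels in which the 12 h and 24 h arrays lay close together. At 6, 12 and 24 h the level was lower than at 0 h by 0.64, 1.38 and 1.31 (each ± 0.07), which makes the 0 h level 1.56, 2.59 and 2.48 times as high. GCLC, the catalytic subunit, gave no call. Probe set 202923_s_at had 7.71 and 7.56 at 0 h, 7.63 and 7.52 at 6 h, 7.40 and 7.25 at 12 h, and 7.57 and 7.34 at 24 h. Only the 12 h arrays were both below 0 h, and 24 h replicate 1 lay between the 0 h arrays. The changes were -0.06 ± 0.10 (adjusted p = 0.833), -0.31 ± 0.10 (0.0732) and -0.18 ± 0.10 (0.295). The second GCLC probe set, 202922_at, changed by -0.15, -0.24 and -0.19, with adjusted p of 0.654, 0.261 and 0.42. Probe set 202923_s_at was called at 12 h with a variance trend (adjusted p = 0.0266), without dim probe sets (0.0493) or with a replicate block (0.0249), and 202922_at without 12 h replicate 1 (-0.43, 0.0338). The difference between the changes of GCLM and GCLC was not tested.

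SLC7A11, the xCT subunit that imports cystine in exchange for glutamate, had 8.64 and 8.54 at 0 h, 8.15 and 8.34 at 6 h, 8.17 and 8.09 at 12 h, and 8.06 and 7.88 at 24 h on probe set 209921_at. All hypoxic arrays were below both 0 h arrays, and the 6 h and 12 h arrays overlapped. It fell by 0.46 ± 0.09 at 12 h (adjusted p = 0.0163) and by 0.62 ± 0.09 at 24 h (adjusted p = 0.00529). The change of -0.34 at 6 h was not called (adjusted p = 0.108), though it was with a variance trend (0.017). Probe set 217678_at fell by 0.49 at 12 h and by 0.51 at 24 h (adjusted p = 0.0154 and 0.0132), with 6.57 and 6.45 at 0 h, 6.20 and 6.29 at 6 h, 6.16 and 5.88 at 12 h, and 5.99 and 6.01 at 24 h. The dim probe set 207528_s_at was not called at any time. The fall on 209921_at was not called at 12 h without 0 h replicate 1 (adjusted p = 0.111), 0 h replicate 2 (0.0685) or 12 h replicate 2 (0.0571), nor at 24 h without 0 h replicate 1 (0.0514). That on 217678_at was not called without 0 h replicate 1 (0.107 at 12 h, 0.0993 at 24 h), without 0 h replicate 2 (0.0633 and 0.0557), or, at 24 h, without 24 h replicate 1 (0.0731) or 24 h replicate 2 (0.0531).

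TXNRD1 encodes the cytosolic thioredoxin reductase, a selenoprotein that keeps thioredoxin reduced with NADPH. It had 10.00 and 9.89 at 0 h, 9.66 and 9.64 at 6 h, 9.30 and 9.41 at 12 h, and 9.47 and 9.44 at 24 h. All hypoxic arrays lay below both 0 h arrays, and the 12 h arrays were the lowest. TXNRD1 fell by 0.59 ± 0.07 at 12 h (adjusted p = 0.00228) and by 0.49 ± 0.07 at 24 h (adjusted p = 0.0038). At 6 h the change was -0.29 ± 0.07 and was not called (adjusted p = 0.072), though it was with a variance trend (0.00392) or without dim probe sets (0.0394). The calls at 12 h and 24 h held under all 14 alternatives tried.

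HMOX1, the inducible heme oxygenase, which breaks heme down to biliverdin, iron and carbon monoxide, showed most of its largest difference by 6 h. It had 8.40 and 8.37 at 0 h, 7.61 and 7.69 at 6 h, 7.45 and 7.48 at 12 h, and 7.59 and 7.60 at 24 h. The 3 hypoxic times lay close together, all well below 0 h. The step between 12 h and 6 h was -0.18 ± 0.06. At 6, 12 and 24 h its level was lower by 0.74, 0.92 and 0.79 (each ± 0.06) than at 0 h, when it was 1.67, 1.89 and 1.73 times as high.

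AKR1C1 encodes an aldo-keto reductase that reduces steroids and carbonyls. Its probe sets 204151_x_at and 216594_x_at carry the suffix of sets whose probes can match other transcripts. The related AKR1C2 and AKR1C3 may share their signal, so the gene behind these sets is uncertain. Probe set 204151_x_at had 10.02 and 10.03 at 0 h, 9.84 and 9.92 at 6 h, 9.72 and 9.68 at 12 h, and 9.67 and 9.72 at 24 h. The 6 h arrays were below 0 h, and the 12 h and 24 h arrays were lower again and overlapped. The falls were 0.32 and 0.33 at 12 h and 24 h (adjusted p = 0.0117 and 0.011), and on 216594_x_at 0.26 and 0.28 (0.0279 and 0.0227). Without 0 h replicate 1 the 12 h and 24 h falls of 204151_x_at had an adjusted p of 0.0786 and 0.0765, without 0 h replicate 2 of 0.0868 and 0.0842, and the 12 h fall without 12 h replicate 2 of 0.0521. On 216594_x_at leaving out single arrays gave 0.0505 to 0.169 at 12 h, with each of the 0 h, 6 h and 12 h arrays, and 0.0684 to 0.157 at 24 h, with 0 h replicates 1 and 2 and 24 h replicate 2. The dim AKR1C1 probe set 217626_at was not called (-0.07, -0.02 and -0.06). AKR1C2 was not called at 12 h (-0.21, adjusted p = 0.0783), and neither was AKR1C3 (-0.20, adjusted p = 0.0552).

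ABCC1 was the exception in direction. It encodes MRP1, a pump that exports glutathione conjugates and drugs from the cell. Probe set 202804_at had 9.10 and 9.16 at 0 h, 9.44 and 9.43 at 6 h, 9.71 and 9.65 at 12 h, and 9.59 and 9.53 at 24 h. All hypoxic arrays lay above both 0 h arrays, and the 12 h arrays were the highest. ABCC1 rose by 0.31, 0.55 and 0.43 (each ± 0.06) at the 3 hypoxic times (adjusted p = 0.0426, 0.002 and 0.00385), or 1.24, 1.46 and 1.35 times. The 12 h and 24 h calls held under all 14 alternatives. The 6 h call was lost without 0 h replicate 1 (adjusted p = 0.290), 0 h replicate 2 (0.208), 6 h replicate 1 (0.257) or 6 h replicate 2 (0.186), and with a replicate block (0.0808). On 202805_s_at ABCC1 changed by 0.13, 0.26 and 0.11, and passed the test only at 12 h (adjusted p = 0.0304). That call was lost without 0 h replicate 1 (0.166), 0 h replicate 2 (0.123), 12 h replicate 1 (0.0876) or 12 h replicate 2 (0.0727).

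**Figure D1:**
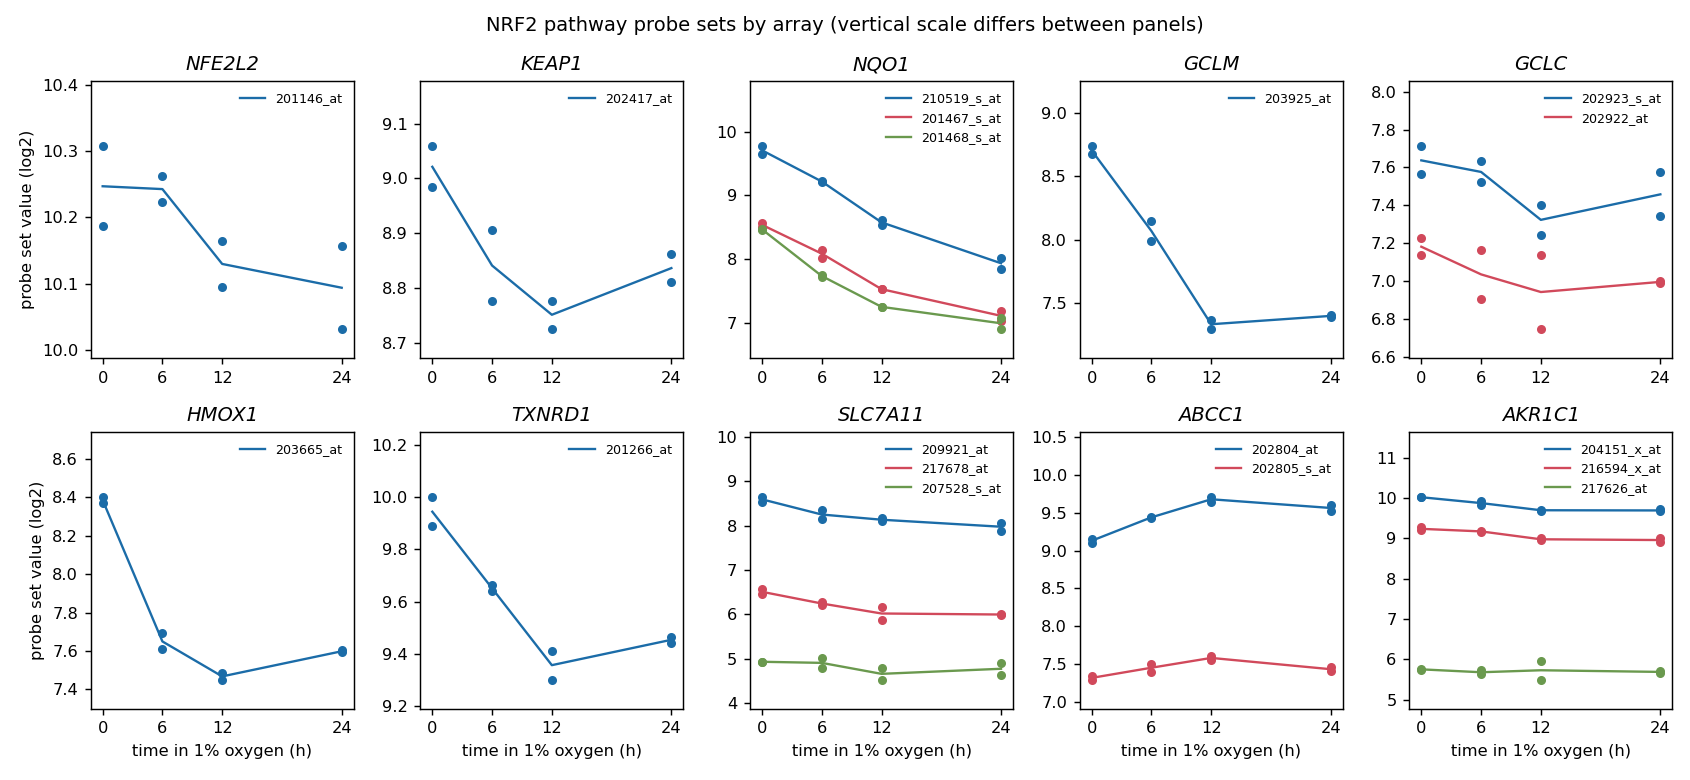
Log2 values on each array (points, 2 per time) of all 18 probe sets of the 10 genes, against hours at 1% oxygen. Each gene has its own panel and vertical scale, and each probe set of a gene its own colour, with lines through the time means. NQO1 steps down to 8.02 and 7.85 at 24 h on 210519_s_at, and HMOX1 is low from 6 h. ABCC1 lies above its 0 h values on both probe sets, and NFE2L2 stays near its 0 h values.

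The change was negative in 16 of the 18 probe sets at 6, 12 and 24 h, against 55.67%, 48.95% and 54.18% of all probe sets. Its median was -0.16, -0.32 and -0.30, against -0.02, 0.00 and -0.02 over all probe sets. The 18 include the probe sets of NQO1, GCLM and HMOX1, whose low levels led to the choice, and several probe sets of the same gene. Since the choice of genes used these comparisons, nothing is read from these values or from the counts of calls. Calls were counted for the 13 probe sets of the 7 genes other than NQO1, GCLM and HMOX1. At 6 h 0 were called lower and 1 higher, where 0.855% and 1.85% of all probe sets were called lower and higher. At 12 h 6 were called lower and 2 higher, against 9.85% and 6.36% of all, and at 24 h 5 and 1, against 7.80% and 6.86%. These make 15 calls, of which 4 were left without 0 h replicate 1 and 5 without 0 h replicate 2.

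**Figure D2:**
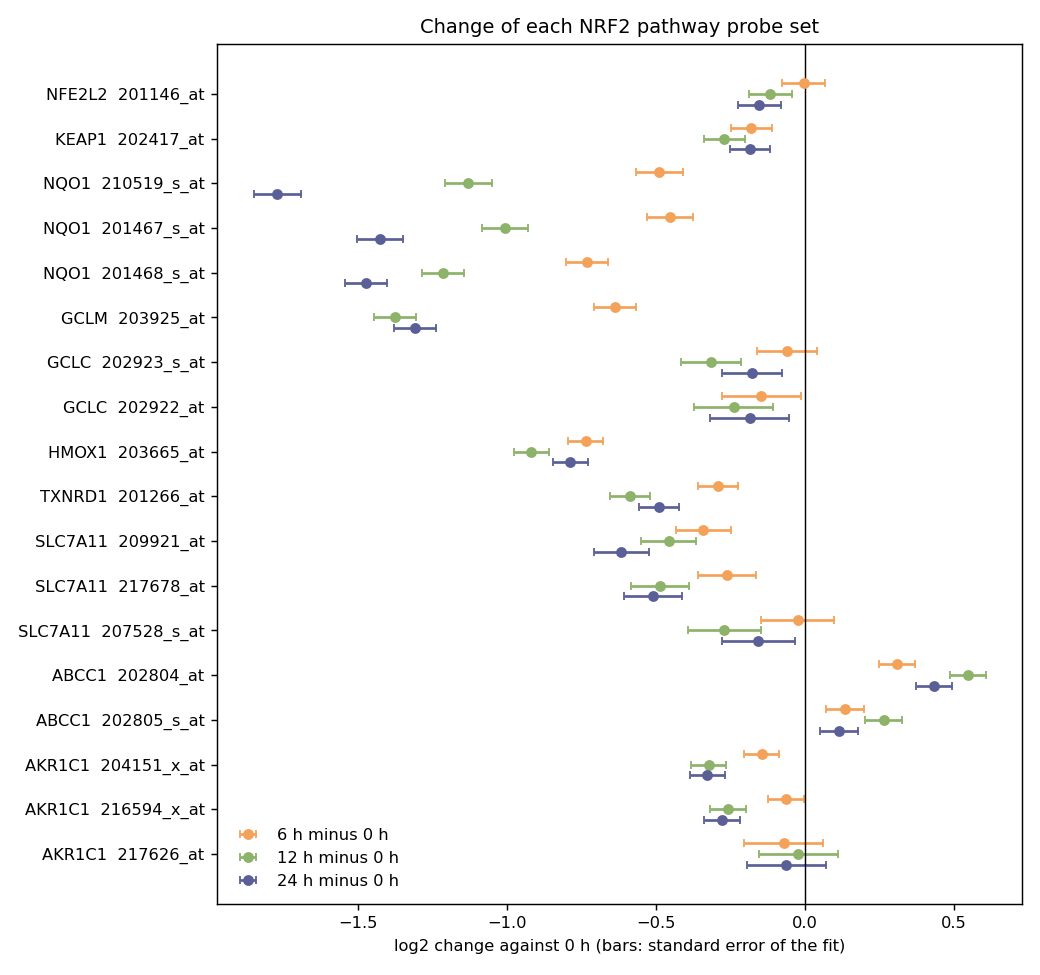
Log2 change against 0 h of each of the 18 probe sets at 6, 12 and 24 h, with bars of 1 standard error of the fit. The NQO1 probe sets reach -1.77 to -1.43 at 24 h, GCLM -1.31 and HMOX1 -0.79, and both ABCC1 probe sets lie above 0.

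Levels at 24 h were also set against those at 6 h. Of the 18 probe sets 4 were called lower, those of NQO1 and GCLM, and 0 higher, where 0.428% of all probe sets were called lower and 1.05% higher. Low levels of these genes in hypoxia led to their choice, so nothing is read from the count. It was smaller without either 6 h array or either 24 h array. With a variance trend it was 7. The added calls were those of TXNRD1 (adjusted p = 0.0451) and of AKR1C1 probe sets 204151_x_at (0.0353) and 216594_x_at (0.0289). From 6 h to 24 h NQO1 changed by -1.28 ± 0.08 on its brightest probe set and by -0.98 and -0.74 on the others. GCLM changed by -0.67 ± 0.07 over the same span and HMOX1 by -0.05 ± 0.06. For NQO1 the step between 12 h and 6 h was -0.64 on 210519_s_at, -0.56 on 201467_s_at and -0.48 on 201468_s_at, and that between 24 h and 12 h was -0.64, -0.42 and -0.26, so that the later step was as large on the brightest probe set and smaller on the other 2. For GCLM the step between 12 h and 6 h was -0.74 ± 0.07 and that between 24 h and 12 h was 0.07 ± 0.07. HMOX1 (0.13 ± 0.06), TXNRD1 (0.10 ± 0.07) and KEAP1 (0.09 ± 0.07) were slightly higher at 24 h than at 12 h, and ABCC1 slightly lower (-0.11 ± 0.06). The differences in timing between genes were not tested, and the interquartile range of all probe sets was 3.63 and 3.68 on the 12 h arrays and 3.77 to 3.81 on the other 6.

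Other genes of the pathway were taken from lists chosen with earlier results of these data known, each gene represented by its brightest probe set. Of all 11963 genes, 0.878% were called lower and 1.95% higher at 6 h, 10.3% and 6.55% at 12 h, and 8.02% and 7.86% at 24 h, with a median change of -0.02, 0.00 and -0.01. Among partners and regulators of NRF2, 14 of 16 genes were measured. At 6, 12 and 24 h 1, 3 and 5 were called lower and 0, 0 and 1 higher, with a median change of -0.02, -0.11 and -0.13. SQSTM1, the autophagy receptor p62 that binds KEAP1, fell by 0.40, 0.52 and 0.51 (adjusted p = 0.0186, 0.0026 and 0.00217), and the 6 h call was lost without 0 h replicate 1 (0.133), 0 h replicate 2 (0.180), 6 h replicate 1 (0.184) or 6 h replicate 2 (0.106). Its second probe set, 213112_s_at, changed by -0.22, -0.12 and -0.17 and was not called. MAFF, a small MAF protein that can pair with NRF2, rose by 0.49 at 24 h (adjusted p = 0.00747). At 24 h GSK3B (-0.36) and BTRC (-0.35), which mark NRF2 for degradation independently of KEAP1, BACH2 (-0.36), a repressor that competes for small MAF proteins, and the coactivator CREBBP (-0.31) fell. CUL3 and MAFG were not called at any time. The 24 h calls of MAFF, GSK3B, BTRC, BACH2 and CREBBP were lost without 0 h replicate 1 (adjusted p = 0.0543 to 0.145) or 0 h replicate 2 (0.0614 to 0.183). Those of GSK3B without 24 h replicate 1 (0.0586), BTRC without 24 h replicate 2 (0.059) and CREBBP without 24 h replicate 1 (0.09) or 2 (0.118) or with a replicate block (0.0557) were lost too. Of the other BTRC probe sets, 216091_s_at was called lower at 24 h (-0.35) and 222374_at was not called (0.17).

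Other glutathione and thioredoxin genes were 10 measured of 12, with 0 called at 6 h, 3 lower at 12 h and 3 lower at 24 h, and a median change of -0.07, -0.10 and -0.12. GSR, which reduces oxidised glutathione, fell by 0.35 and 0.34 at 12 h and 24 h (adjusted p = 0.0219 and 0.024). PRDX1, a peroxiredoxin, fell by 0.25 and 0.29 (0.0288 and 0.0179), and thioredoxin, TXN, by 0.22 and 0.27 (0.0446 and 0.0258). A dimmer TXN probe set, 216609_at, passed the test in the opposite direction at 6 h (0.39) and 24 h (0.32). Of the genes listed for NADPH supply and the pentose phosphate pathway, 5 measured of 6, only TKT was called. It encodes transketolase, an enzyme of the non-oxidative branch, which does not itself make NADPH, and fell by 0.40 at 12 h and by 0.42 at 24 h (adjusted p = 0.0169 and 0.014). The list's median change was 0.01, -0.01 and 0.04. The 24 h calls of GSR, PRDX1 and TXN were lost without 0 h replicate 1 (adjusted p = 0.105 to 0.148), 0 h replicate 2 (0.102 to 0.147) or 24 h replicate 1 (0.0656 to 0.0819), and that of TXN also without 24 h replicate 2 (0.0624). The 12 h calls of PRDX1 (-0.27 to -0.23) and TXN (-0.26 to -0.19) were lost without any single 0 h, 6 h or 12 h array. That of GSR was lost without either 0 h array or 12 h replicate 1 (-0.38 to -0.31). TXN also lost its 12 h call after centring (adjusted p = 0.0584), after quantile normalisation (0.0858) and with a replicate block (0.072). Lost too were those of TKT without either 0 h replicate (0.0880 to 0.1), and those of 216609_at without any single array of the times compared (0.0646 to 0.225) and, at 6 h, with a replicate block (0.0628).

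Among other detoxification and export genes, 20 measured of 24, 0 were called at 6 h. AKR1B10 and NQO2 were lower at 12 h (-0.25 and -0.28), and the glutathione transferase GSTM3 was higher at 24 h (0.56 ± 0.06, adjusted p = 0.00146). The median change was -0.02, -0.04 and -0.04. ABCC2, ABCC3, ABCC4, ABCC5 and ABCG2, pumps related to ABCC1, were not called at any time. Of 7 measured heme and iron genes of 8, HMOX2, the constitutive heme oxygenase, and FECH, which makes heme, fell at 12 h (-0.34 and -0.33) and 0 were called at 6 h or 24 h. The median change was -0.06, -0.14 and -0.01. Ferritin light chain, FTL, was not called on its brightest probe set (-0.18 and -0.17 at 12 h and 24 h). With a variance trend it was called lower at both times (adjusted p = 0.003 and 0.00466). The second FTL probe set, 213187_x_at, was called lower at 12 h (-0.24, adjusted p = 0.0438) and not at 24 h (-0.16). The second HMOX2 probe set, 218121_at, was not called (-0.32 at 12 h, adjusted p = 0.0558). The 12 h calls of AKR1B10, NQO2, HMOX2 and FECH were all lost without 0 h replicate 1 (adjusted p = 0.0783 to 0.137) or 0 h replicate 2 (0.0715 to 0.165). Without 12 h replicate 2 those of AKR1B10 (0.133), HMOX2 (0.0676) and FECH (0.0859) were lost, without 12 h replicate 1 that of NQO2 (0.0876), and without either 6 h replicate that of AKR1B10 (0.0541). That of AKR1B10 was also lost with a variance trend (0.102) and that of NQO2 after quantile normalisation (0.0611). GSTM3 at 24 h against 0 h lost its call under none of the 14 alternatives.

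ATF4 is a stress-induced transcription factor that also drives SLC7A11, so its targets were counted beside the NRF2 genes. Of 11 measured of 12, 5, 5 and 6 were called lower and 2, 2 and 2 higher at 6, 12 and 24 h, with a median change of -0.26, -0.17 and -0.39. ATF4 fell by 0.50, 0.73 and 0.77 (adjusted p = 0.00952, 0.000829 and 0.000479) and ASNS, asparagine synthetase, by 0.54, 0.95 and 1.05 (0.00684, 0.00023 and 0.000103). TRIB3, a pseudokinase induced by ATF4, fell by 0.57, 0.92 and 0.89, while DDIT4 (2.34, 2.27 and 2.26) and VLDLR (1.39, 1.67 and 1.58), which hypoxia is also known to induce, rose. All 8 hypoxia check genes, among them BNIP3 (2.96, 3.33 and 3.31) and PDK1 (2.05, 2.32 and 2.42), rose at each time. The 6 h calls of ATF4, ASNS and TRIB3 were lost without 0 h replicate 1 (adjusted p = 0.0719 to 0.0952), 0 h replicate 2 (0.0577 to 0.106) or 6 h replicate 1 (0.0645 to 0.117), and those of ATF4 (0.0785) and ASNS (0.0702) without 6 h replicate 2. Their 12 h and 24 h calls, those of SQSTM1 at these times, and those of DDIT4, VLDLR, BNIP3 and PDK1 held under all 14 alternatives.

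**Figure D3:**
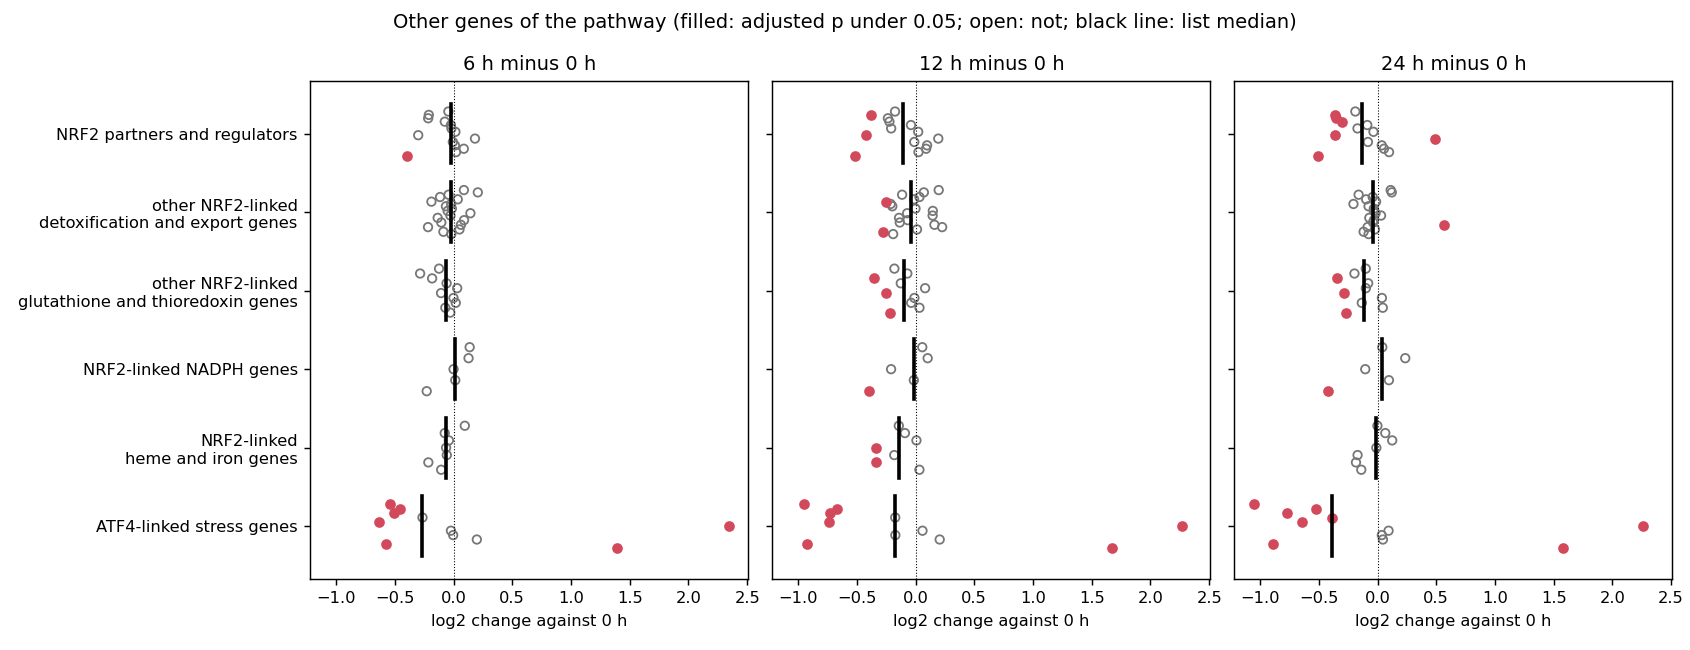
Log2 change against 0 h at 6, 12 and 24 h of the measured genes of each NRF2-linked list and of the ATF4-linked list, as points that are filled where the adjusted p was under 0.05, with a black line at each list's median. NRF2-linked medians lie between -0.14 and 0.04, and DDIT4 and VLDLR stand apart on the right.

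Genes whose pattern was most like that of NQO1, GCLM, HMOX1 and TXNRD1 were sought by Pearson's r over the 8 arrays. Candidates were the 88 genes whose time means spanned at least 1 on the log2 scale. Among the members only NQO1 and GCLM met this span, so no other member could be named. TXNRD1, for example, was not a candidate for GCLM, although their r was 0.97. All share the arrays and the time course, so r is a description with no test. NQO1 was followed most closely by SH3BGR (0.98), TAGLN (0.98), an actin-binding protein of smooth muscle, GPX3 (0.97), a secreted glutathione peroxidase, ANXA1 (0.96), a phospholipid-binding annexin, and ASNS (0.94). For GCLM they were ASNS (0.98), the small heat shock protein HSPB8 (0.98), the growth factor HBEGF (0.97), EMP1 (0.97) and MAP1A (0.97), a microtubule-associated protein. For HMOX1 they were HBEGF (0.97), MAP1A (0.94), CEBPG (0.93), a partner of ATF4, EMP1 (0.93) and ASNS (0.91). For TXNRD1 they were EMP1 (0.98), GCLM (0.97), HBEGF (0.97), CEBPG (0.95) and ASNS (0.94). ASNS was in all 4 sets, which were drawn from the same 88 genes, and this overlap was not tested. SH3BGR, TAGLN, GPX3, ANXA1, ASNS and MAP1A, like NQO1, had lower means at 24 h than at 12 h.

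**Figure D4:**
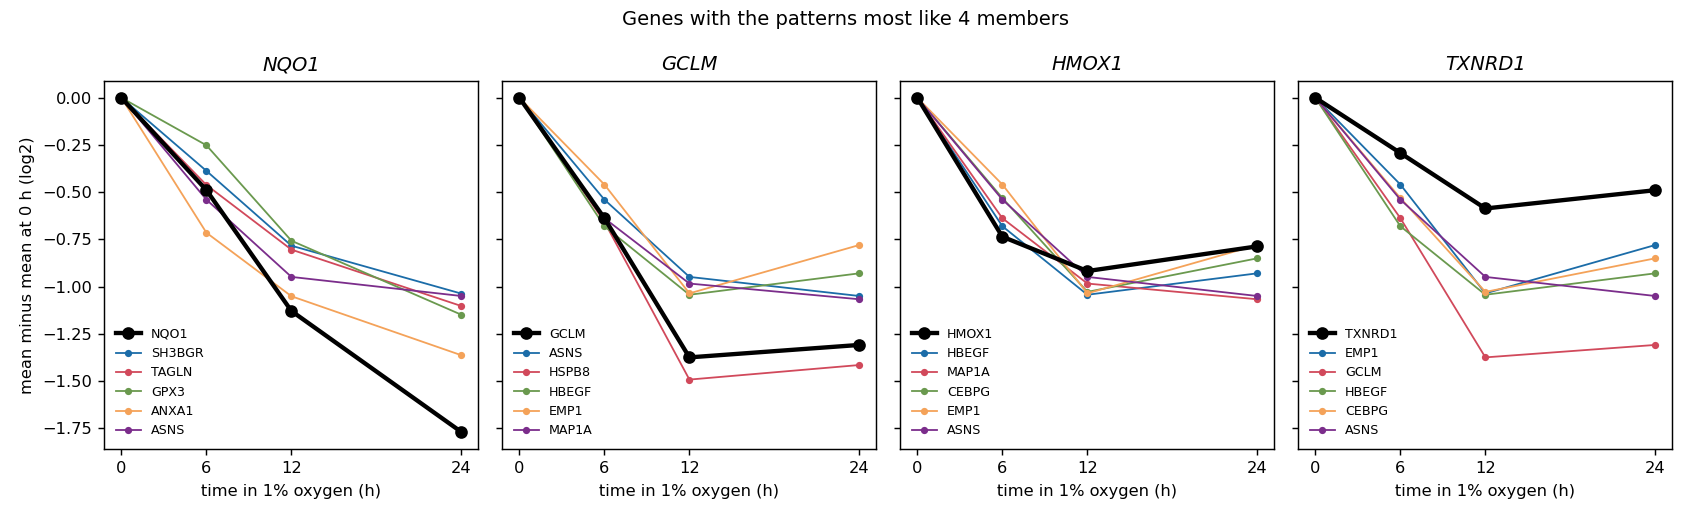
Mean log2 change against 0 h (n = 2 arrays per time) of NQO1, GCLM, HMOX1 and TXNRD1 (black), against hours at 1% oxygen. Colours show the 5 genes with the highest Pearson's r to each over 8 arrays, among genes whose time means spanned at least 1. The curves of the NQO1 set are lowest at 24 h, and most curves of the other sets are slightly higher at 24 h than at 12 h, ASNS and MAP1A being lower.

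Replicates correlated at 0.997 to 0.999 over all probe sets and arrays of different times at 0.993 to 0.998; probe sets are not independent replicates. The muscle marker list averaged 10.31 to 10.44 on all 8 arrays and the fibroblast list 6.59 to 6.71. The immune list (4 measured of 6), which held none above the array median, averaged 4.35 to 4.49, the endothelial list 5.51 to 5.77 and the epithelial list 5.16 to 5.40. The endothelial list was 5.68 and 5.77 at 24 h against 5.51 and 5.54 at 0 h, and its part in the results was not tested. Poly-A spike controls, 24 probe sets, averaged 0.47, 0.43 and 0.65 higher at 6, 12 and 24 h than at 0 h, and hybridisation controls, 18 probe sets, 0.25, 0.19 and 0.19 higher; their part in the falls was not tested.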

How the data were processed

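Total RNA of 8 SJRH30 samples was amplified, biotin-labelled and hybridised to 1-colour Affymetrix arrays, per the labels' protocols. The authors deposited log2 values made with RMA, per the submitters' processing notes; its version is not given in the sources used here. RMA commonly subtracts background and equalises the distributions of the arrays, which removes changes in total RNA, and low signals contain cross-hybridisation, which shrinks changes of dim genes. The number of arrays limits the precision.

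From these values, group means of 4 times were fitted to all 8 arrays and 22215 probe sets (62 controls were left out) with limma 3.58.1 (lmFit, eBayes) in R 4.3.3, two-sided, with 4 residual and 3.696 prior degrees of freedom. P-values were adjusted by Benjamini-Hochberg within a comparison, and the procedure was tested on simulated data. The platform annotation listed 20113 of the 22277 probe sets, of which 19070 had 1 symbol and 1043 had several and were not named; the other 2164 were not listed. The genes named were all 10 members, up to 5 called genes of each list with the largest change at 24 h (2 uncalled where none was called), and the 5 genes most like each of 4 members; AKR1B10, NQO2, FECH, AKR1C2, AKR1C3, CUL3, MAFG, CREBBP and the ABC pumps were added after their values were seen. Some list genes, among them MAFK, PGAM5, SRXN1, GGT1, FTH1, AKR1B1, MGST1, PTGR1, UGT1A6 and SESN2, were not analysed here. The members and lists were chosen with earlier results of these data known. Alternatives were a variance trend, centring, quantile normalisation, a filter on dim probe sets, 1 probe set per gene, a replicate block and leaving out each array.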

Additional observations from a re-analysis of the deposited data

How the results depend on the processing

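The changes of NQO1, GCLM and HMOX1 against 0 h were negative under all 14 alternatives, from -1.86 to -1.35 for NQO1 at 24 h over its 3 probe sets, -1.34 to -1.28 for GCLM and -0.80 to -0.77 for HMOX1. Of the 15 calls of the other 7 genes against 0 h, 4 held under every alternative (TXNRD1 and ABCC1 probe set 202804_at at 12 h and 24 h), and 0 reversed. Over all probe sets, the comparisons of 6, 12 and 24 h with 0 h and of 24 h with 6 h called 600, 3602, 3257 and 328. Leaving out 1 array gave 84 to 650, 857 to 3949, 951 to 3516 and 19 to 452. With a variance trend the counts were 1911, 5044, 4671 and 1568, and without the dimmest 25% of probe sets 1051, 4381, 4063 and 768. With 1 probe set per gene, where fewer were tested, 2202 were called at 12 h and 2123 at 24 h. Deviations of same-numbered arrays correlated at -0.13 to 0.08, so no pairing by replicate number was seen, though it is not excluded. With the replicate number as a block, 334, 2880, 2635 and 129 were called, and KEAP1 and TXN at 12 h, ABCC1 and TXN probe set 216609_at at 6 h and CREBBP at 24 h were not. After centring on the median the counts were 560, 3487, 3307 and 341. With a further quantile normalisation 3192 were called at 12 h, KEAP1, TXN, NQO2 and AKR1C1 probe set 216594_x_at at 12 h were not, and the lower share of calls was 52.4%, against 60.8% without it. The cause of these differences was not tested. With 2 arrays per time, small changes of dim probe sets cannot be measured well.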
